A study of Mus musculus with 12 samples.

Results

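Imprinted genes other than Grb10 and Ddc were followed through hearts of mouse embryos at E15.5. A list of 44 genes from imprinted domains and single imprinted loci was matched by symbol to the probe annotation of the array, and for each gene the probe with the highest mean over the 12 arrays was taken. Of the 44 genes, 41 had a probe, out of 19056 named genes on the array, and H19, Snrpn and Zrsr1 were not analysed here. Snurf, which shares a transcript with Snrpn and was looked up after the values were seen, had 4 probes.

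The hearts came from 4 PatKO embryos (Ddc+/-, which inherited the disrupted Ddc allele from the father), 1 KO embryo (Ddc-/-, both alleles disrupted), 4 MatKO embryos (Ddc-/+, disrupted allele from the mother) and 3 WT embryos. The disrupted allele was that of a single gene-trap line on a mixed B6;129S5 background, and it was carried in all tissues, so that effects arising outside the heart cannot be told apart from effects in it. In heart, Ddc_exon1a is transcribed mainly from the father's copy, so PatKO and KO hearts together (5 ablated hearts) were also set against MatKO and WT hearts together (7 control hearts). The label of each heart was checked on Ddc: its brightest probe read 9.12 to 10.44 in the 5 ablated hearts and 13.42 to 14.12 in the 7 controls on the log2 scale. The heart markers Myh6 (14.26 to 15.08) and Nkx2-5 (11.77 to 12.66) were bright in all 12 hearts, and Xist, which marks an inactive X chromosome, was at 4.71 to 6.22 in PatKO 1, PatKO 3 and MatKO 3 and at 10.54 or more in the other 9. Litter is not given, the arrays lay on 2 slides of 6 with no record of which heart lay on which, and the p-values therefore measure only the spread between these hearts.

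In imprinted genes a mark set in the egg or sperm, usually DNA methylation at an imprinting control region, silences the copy from one parent. Many of them govern fetal growth: as a broad rule, genes active on the father's copy (Igf2, Dlk1, Peg3, Mest) promote growth or the use of maternal resources, and genes active on the mother's copy (Cdkn1c, Igf2r, Phlda2) restrain it. Ddc lies beside Grb10 and shares its control region. The question asked here was whether imprinted genes outside that locus had another level in hearts that lost the expressed Ddc copy. The array reads total RNA and does not separate the 2 parental copies.

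Sequences are shown for 5 start sites that the results below return to: Nnat, Ndn, Mkrn3 and Dlk1, which passed an unadjusted p of 0.05 between PatKO and MatKO hearts, and Peg3, whose start region is shared with Usp29. Each is the stretch of 250 bases before the RefSeq start site (GRCm38.p6), with every CG pair, the site of DNA methylation in mammals, in capitals. RefSeq start regions were at hand for 34 of the 41 genes, and for Cdkn1c none was used here.
Nnat, chr2:157559828-157560077, plus strand: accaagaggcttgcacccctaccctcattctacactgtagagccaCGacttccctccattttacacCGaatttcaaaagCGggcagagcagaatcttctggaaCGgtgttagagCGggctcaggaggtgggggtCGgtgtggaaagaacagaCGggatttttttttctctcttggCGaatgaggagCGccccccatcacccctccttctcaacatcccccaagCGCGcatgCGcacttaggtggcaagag
Ndn, chr7:62348027-62348276, plus strand: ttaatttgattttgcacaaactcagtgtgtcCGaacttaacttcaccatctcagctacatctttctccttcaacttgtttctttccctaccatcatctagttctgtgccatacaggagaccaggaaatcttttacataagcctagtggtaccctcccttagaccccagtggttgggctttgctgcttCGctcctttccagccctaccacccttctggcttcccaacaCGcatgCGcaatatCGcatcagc
Mkrn3, chr7:62420154-62420403, minus strand: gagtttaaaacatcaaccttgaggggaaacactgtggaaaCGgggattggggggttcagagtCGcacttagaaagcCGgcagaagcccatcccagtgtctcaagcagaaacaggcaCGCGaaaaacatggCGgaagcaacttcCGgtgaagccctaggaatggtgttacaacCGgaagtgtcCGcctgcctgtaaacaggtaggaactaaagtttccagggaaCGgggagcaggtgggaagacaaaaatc
Dlk1, chr12:109452573-109452822, plus strand: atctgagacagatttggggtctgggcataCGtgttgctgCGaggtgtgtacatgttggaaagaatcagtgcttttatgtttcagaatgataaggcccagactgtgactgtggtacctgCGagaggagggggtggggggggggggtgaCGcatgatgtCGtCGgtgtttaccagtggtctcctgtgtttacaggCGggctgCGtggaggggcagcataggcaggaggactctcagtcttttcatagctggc
Peg3, chr7:6730420-6730669, minus strand: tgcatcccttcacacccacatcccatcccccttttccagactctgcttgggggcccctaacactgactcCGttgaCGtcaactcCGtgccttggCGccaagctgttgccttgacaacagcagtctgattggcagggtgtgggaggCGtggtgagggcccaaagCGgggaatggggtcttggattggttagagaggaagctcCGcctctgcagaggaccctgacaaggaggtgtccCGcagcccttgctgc

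The Nnat stretch held 12 CG pairs, that of Mkrn3 10, those of Dlk1 and Peg3 8 each and that of Ndn 5, against a median of 6 over all 32851 start regions of this length. Over the 51 start regions of the 34 genes the median was 14. The letters TGCCGC, which the imprint-protecting factor ZFP57 is known to bind when methylated, were searched on both strands. They stood in 9 of those 51 stretches (17.6%), against 8.68% of all stretches, and in none of the 5 shown. The 9 lay at 8 genes, as overlapping Mest stretches were both counted. These letters hold a CG pair, and the shares were not adjusted for the number of CG pairs. The Peg3 and Usp29 stretches, read on opposite strands, had 163 bases in common.

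No imprinted gene was called at its brightest probe at an adjusted p of 0.05 in any of the 5 comparisons (limma, Benjamini-Hochberg over all 45267 probes). A dimmer Nnat probe, described below, was called between the KO heart and WT hearts. Over all probes 0.00663% were called between PatKO and MatKO hearts, 0.00663% between PatKO and WT, 0% between MatKO and WT, 0.0729% between KO and WT, and 0.00884% between ablated and control hearts. The 95% intervals of PatKO minus MatKO lay inside a 2-fold change in either direction for all 23 imprinted genes with a mean log2 signal of 7 or more and for 16 of the 18 dimmer ones, the exceptions being Nnat and Plagl1. The median length of those intervals on either side of the estimate was 0.33.

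At an unadjusted p of 0.05 (limma), 1 of 41 genes was higher and 4 were lower in PatKO than in MatKO hearts (12.2% together), where 3.3% of all probes were higher and 3.82% lower (7.12% together). Between PatKO and WT hearts 0 genes were higher and 3 lower (7.32%), where 1.75% of all probes were higher and 2.17% lower (3.93% together). Between MatKO and WT hearts 2 genes were higher and 1 lower (7.32%), beside 2.41% and 2.47% of all probes (4.88% together). The KO heart was higher than WT hearts at this threshold in 2 genes and lower in 0 (4.88%), beside 3.23% and 1.69% of all probes (4.91% together). Between ablated and control hearts 4 genes were higher and 4 lower (19.5%), beside 2.78% and 2.68% of all probes (5.46% together). With only the 16120 probes of a mean of 7 or more in the fit, 780 were higher and 920 lower between PatKO and MatKO hearts. For PatKO against WT these counts were 224 and 290, for MatKO against WT 430 and 366, and for ablated against control 474 and 564. Of the 41 genes, 23 were that bright.

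The genes did not shift together. Their median log2 difference was -0.04 between PatKO and MatKO, -0.01 between PatKO and WT, 0.03 between MatKO and WT, 0.05 between KO and WT and -0.01 between ablated and control hearts, beside medians over all probes of -0.00, -0.00, 0.00, -0.02 and -0.01 for those comparisons as listed. Genes above 0 numbered 16 of 41 for PatKO against MatKO (48.9% of all probes), 18 for PatKO against WT (50% of all probes), 25 for MatKO against WT (51.2%), 24 for KO against WT (46.4%) and 19 for ablated against control (47.8%). These comparisons share hearts, so their values are not independent of each other. Of the 20 measured genes expressed from the father's copy, 9 were higher in PatKO than in MatKO hearts, with a median of -0.02. Of the 20 expressed from the mother's copy, 6 were higher, with a median of -0.07. At least 12 of the 41 genes, from both groups, are imprinted in some tissues only, and their imprinting in these hearts was not tested. Gnas, whose locus yields transcripts of both kinds, was placed in neither group.

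**Figure D1:**
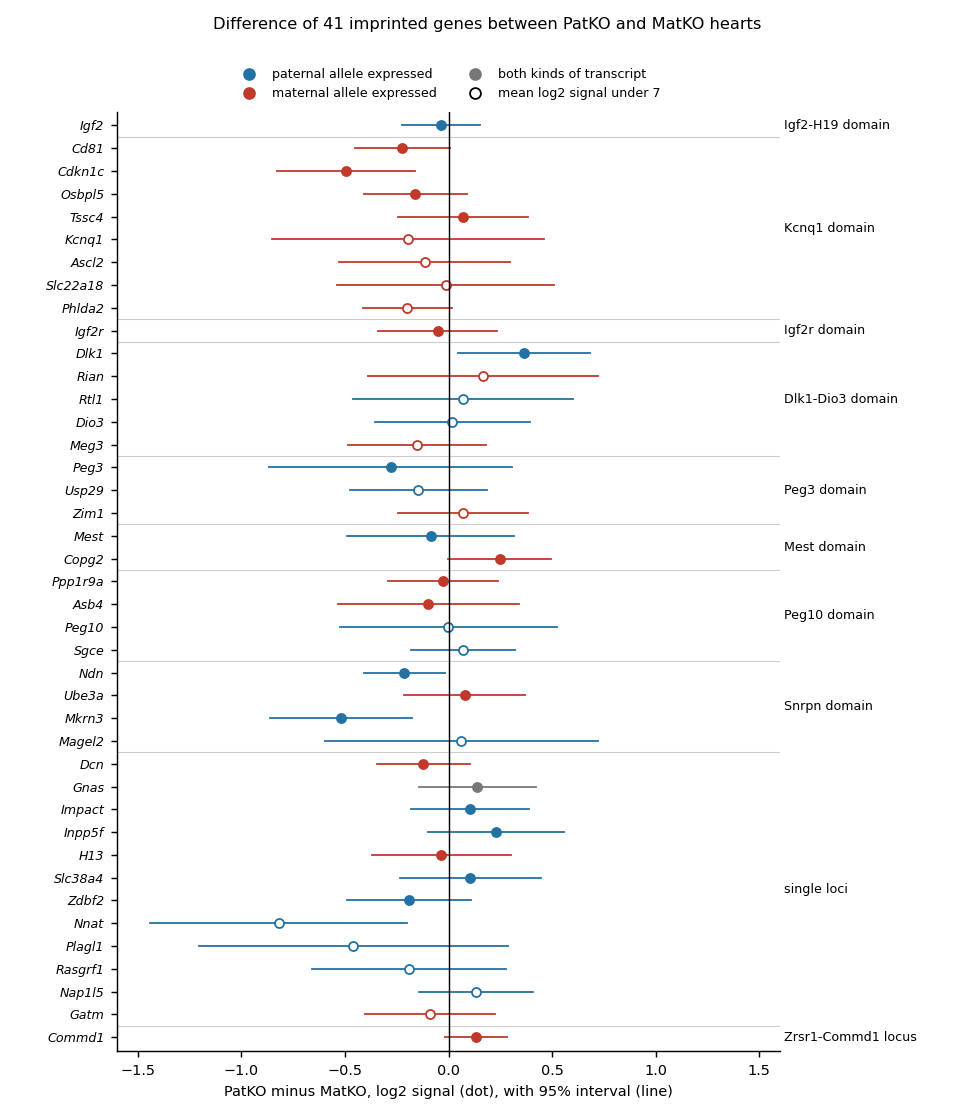
Difference in log2 signal between PatKO and MatKO hearts (PatKO minus MatKO, n = 4 each) for 41 imprinted genes grouped by domain, as dots with 95% limma intervals. Blue marks expression from the father's copy and red from the mother's, in some tissues at least. Open dots mark a mean signal under 7. The intervals of 36 of the 41 genes hold 0; those of Cdkn1c, Ndn, Mkrn3, Nnat and Dlk1 do not.

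Cdkn1c encodes a cyclin-dependent kinase inhibitor that stops the cell cycle and restrains fetal growth, and it is the main maternally expressed growth restrainer of the Kcnq1 domain. Its log2 signal was 14.31, 14.15, 14.10 and 14.48 in PatKO hearts, 14.60 in the KO heart, 14.85, 14.96, 14.74 and 14.48 in MatKO hearts, and 14.72, 14.74 and 14.18 in WT hearts. PatKO and MatKO hearts met at 14.48 without crossing, while 1 WT heart lay as low as the PatKO hearts and the KO heart lay within the MatKO range. PatKO minus MatKO was -0.50 ± 0.15 (SE), 70.9% of the MatKO signal, with an unadjusted p of 0.00757 and an adjusted p of 0.508 (limma). The exact permutation p was 0.0286, the smallest that 4 against 4 hearts can give. Against WT the difference was -0.29 in PatKO hearts, 0.05 in the KO heart and 0.21 in MatKO hearts.

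The rest of the Kcnq1 domain (Cd81, Tssc4, Osbpl5, Kcnq1, Ascl2, Slc22a18 and Phlda2) was in part dim. The genes of this domain are expressed from the mother's copy, but Cd81, Tssc4, Osbpl5 and Ascl2 only in some tissues. With Cdkn1c, 1 of its 8 genes was higher and 7 were lower in PatKO than in MatKO hearts, with a median of -0.18 and differences other than that of Cdkn1c between -0.22 and 0.07. Cd81, which encodes a membrane tetraspanin, read 14.56, 14.74, 14.84 and 14.94 in PatKO hearts, 14.76 in the KO heart, 15.12, 14.97, 14.91 and 14.98 in MatKO hearts, and 14.78, 15.00 and 15.07 in WT hearts. The groups overlapped, and ablated minus control hearts gave -0.21 ± 0.08 (SE) with an adjusted p of 0.874 (limma). Phlda2, a brake on placental growth, read 5.06, 5.14, 4.86 and 4.93 in PatKO hearts, 5.27 in the KO heart, 5.37, 5.06, 5.25 and 5.11 in MatKO hearts, and 4.93, 4.80 and 4.94 in WT hearts. All MatKO hearts lay above all WT hearts by a small step near the lowest value on the array (4.58), and the difference was 0.31 ± 0.11 (SE, adjusted p = 0.999, limma; exact permutation p = 0.0571, the smallest that 4 against 3 hearts allow).

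Mkrn3 and Ndn lie on either side of Magel2 in the Snrpn domain, and both are expressed from the father's copy. Mkrn3, a ubiquitin ligase known as a brake on puberty, read 9.10, 9.05, 8.64 and 9.22 in PatKO hearts, 9.49 in the KO heart, 9.65, 9.63, 9.28 and 9.53 in MatKO hearts, and 9.61, 9.27 and 9.04 in WT hearts. Ndn, which encodes necdin, a growth suppressor best known from neurons, read 13.40, 13.28, 13.36 and 13.36 in PatKO hearts, 13.35 in the KO heart, 13.54, 13.58, 13.54 and 13.59 in MatKO hearts, and 13.66, 13.48 and 13.28 in WT hearts. For both genes every PatKO heart lay below every MatKO heart, and WT hearts reached into both ranges. The KO heart lay within the MatKO range for Mkrn3 and within the PatKO range for Ndn. Against WT, Mkrn3 gave -0.30 in PatKO hearts, 0.19 in the KO heart and 0.22 in MatKO hearts. Ndn gave -0.12, -0.12 and 0.09 in that order. PatKO minus MatKO was -0.52 ± 0.16 (SE) for Mkrn3, 69.8% of the MatKO signal (unadjusted p = 0.00657, adjusted p = 0.492, limma). For Ndn it was -0.21 ± 0.09 (SE), 86.2% of the MatKO signal (unadjusted p = 0.0346, adjusted p = 0.652, limma). The exact permutation p was 0.0286 for each.

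With Cdkn1c, Nnat and the single higher gene, Commd1, these made 5 of 41 genes (12.2%) whose PatKO and MatKO hearts did not overlap, where 2.15% of all probes were so separated upwards and 2.59% downwards (4.75% together). Between PatKO and WT hearts 1 gene was separated upwards (Commd1) and 1 downwards (Usp29), beside 2.21% and 2.48% of all probes (4.69% together), and between MatKO and WT hearts 2 upwards (Phlda2, Nnat) and 1 downwards (Inpp5f), beside 2.65% and 2.42% (5.07% together). Other genes of the Snrpn domain gave other values. Magel2, which starts between Ndn and Mkrn3, gave 0.06 between PatKO and MatKO hearts. Ube3a, a ubiquitin ligase expressed from the mother's copy in some tissues, gave 0.08. Magel2 was dim and its hearts spread widely, with 5.84, 5.65, 5.11 and 5.41 in PatKO hearts, 5.68 in the KO heart, 4.91, 5.15, 5.96 and 5.74 in MatKO hearts, and 6.09, 6.09 and 4.98 in WT hearts. The 2 brighter probes of Snurf, from the same domain, read 12.17 to 12.39 and 11.13 to 11.55 in PatKO hearts, 12.30 and 11.56 in the KO heart, 12.28 to 12.40 and 11.07 to 11.72 in MatKO hearts, and 12.30 to 12.37 and 11.36 to 11.54 in WT hearts.

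Dlk1, a membrane protein of the Notch ligand family that keeps fetal progenitor cells from maturing, is a paternally expressed gene of the Dlk1-Dio3 domain. It read 14.52, 14.95, 14.58 and 14.38 in PatKO hearts, 14.62 in the KO heart, 14.11, 14.03, 14.43 and 14.40 in MatKO hearts, and 14.35, 14.16 and 14.52 in WT hearts. The highest heart was PatKO 2, and the lowest PatKO heart lay within the MatKO range. The difference between PatKO and MatKO was 0.36 ± 0.15 (SE), 129% of the MatKO signal (unadjusted p = 0.0292, adjusted p = 0.627, limma; exact permutation p = 0.0857), and between ablated and control hearts 0.32 ± 0.11 (SE, adjusted p = 0.814, limma). The other Dlk1 probe gave 0.42 between PatKO and MatKO hearts. Without PatKO 2 the difference was 0.25 (unadjusted p = 0.0913, limma), and that heart also stood apart on 9 skeletal muscle genes, with a mean deviation of 0.54, against 0.07 at most in any other heart. The part of skeletal muscle RNA in it was not tested. Its partners in the domain were all under a mean of 7: Rtl1, Dio3, Meg3 and Rian gave 0.07, 0.02, -0.15 and 0.17 in that comparison. Meg3, the maternally expressed long RNA of the domain, read 5.55, 5.18, 5.77 and 5.20 in PatKO hearts, 5.46 in the KO heart, 5.79, 5.76, 5.35 and 5.40 in MatKO hearts, and 5.53, 5.54 and 5.55 in WT hearts.

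Some hearts held RNA of liver genes. Afp, the fetal liver's main secreted protein, read at least 10.49 in 6 hearts (PatKO 1, 2 and 4, the KO heart, and MatKO 3 and 4) and at most 6.23 in the other 6, and the 20 liver genes gave a median difference of 1.05 between PatKO and MatKO hearts and 2.01 between ablated and control hearts, 18 of 20 being higher in each. Dlk1 is also a gene of the fetal liver. With the mean of the liver genes as a covariate the Dlk1 difference was 0.29 (unadjusted p = 0.111, limma) between PatKO and MatKO hearts. Between ablated and control hearts it was 0.25 (unadjusted p = 0.126, limma). That of Cdkn1c between PatKO and MatKO was -0.49 (unadjusted p = 0.0223, limma) and that of Mkrn3 was -0.58 (unadjusted p = 0.00961, limma). Liver signal was unevenly spread over the genotypes, and its part in the differences of these 3 genes was not tested. In bulk hearts fewer cells of a type and less RNA per cell cannot be told apart.

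Peg3, a paternally expressed zinc-finger gene needed for fetal growth and maternal care, read 12.08, 11.72, 12.43 and 11.63 in PatKO hearts, 11.59 in the KO heart, 12.63, 12.78, 11.98 and 11.58 in MatKO hearts, and 12.03, 12.48 and 12.13 in WT hearts. Its 4 lowest hearts (MatKO 4, the KO heart, PatKO 4 and PatKO 2) were all among the 6 with Afp signal. PatKO minus MatKO was -0.28 ± 0.27 (SE, unadjusted p = 0.317, limma) and 0.07 with the liver genes as a covariate, and ablated minus control was -0.34 (unadjusted p = 0.127) and 0.13 with them. The sign of its difference thus turned with that covariate. The part of the liver genes in these differences was not tested.

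**Figure D2:**
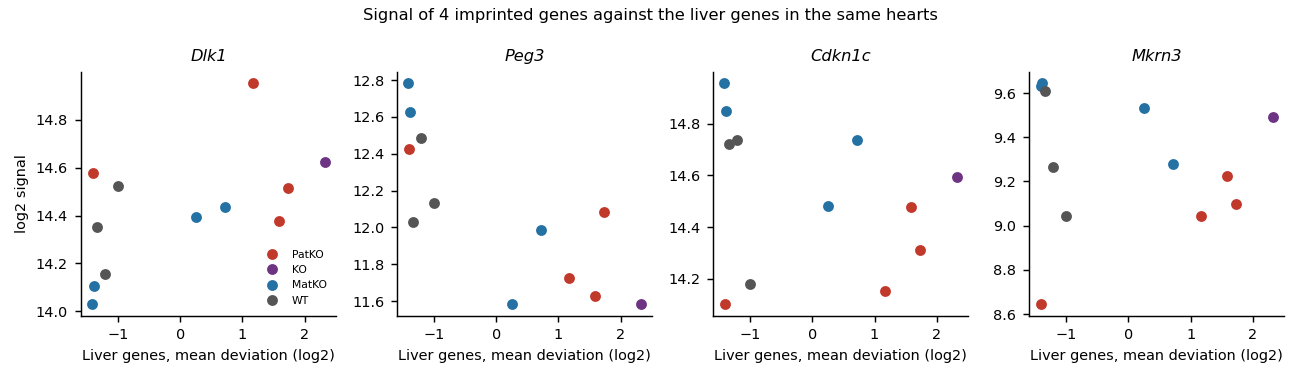
Log2 signal of Dlk1, Peg3, Cdkn1c and Mkrn3 (vertical axis) in each heart against the mean deviation of 20 liver genes from their mean over the 12 hearts (horizontal axis, log2); 1 dot is 1 heart, coloured by genotype. Peg3 read 11.58 to 12.08 in the 6 hearts with liver signal and 12.03 to 12.78 in the other 6.

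Usp29, which runs away from the shared start region of Peg3, read 5.28, 4.91, 5.41 and 5.18 in PatKO hearts, 5.67 in the KO heart, 5.19, 5.75, 5.21 and 5.21 in MatKO hearts, and 5.60, 5.79 and 5.53 in WT hearts. All PatKO hearts lay below all WT hearts, and the difference was -0.45 ± 0.16 (SE, unadjusted p = 0.0183, adjusted p = 1.00, limma; exact permutation p = 0.0571). The other 2 Usp29 probes gave 0.09 and 0.02, the mean of all 3 gave -0.11 (unadjusted p = 0.170, limma), and with the liver genes as a covariate the difference was -0.25 (unadjusted p = 0.222). This gene was dim, and the PatKO heart with the highest Peg3 signal also had the highest Usp29 signal of its group. Zim1, the maternally expressed neighbour, read 4.91, 5.17, 4.92 and 5.32 in PatKO hearts, 5.05 in the KO heart, 5.24, 4.84, 4.85 and 5.10 in MatKO hearts, and 5.0, 5.36 and 4.91 in WT hearts. It sat near the lowest values on the array in every heart.

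Nnat, a paternally expressed gene for a small membrane protein of developing brain and pancreas, had 4 probes. At the brightest it read 6.89, 6.23, 5.48 and 6.21 in PatKO hearts, 7.15 in the KO heart, 7.07, 7.05, 6.94 and 7.02 in MatKO hearts, and 6.88, 5.76 and 6.29 in WT hearts. MatKO hearts were nearly equal and lay above every PatKO and WT heart, whereas PatKO and WT hearts were scattered. PatKO minus MatKO was -0.82 ± 0.28 (SE, adjusted p = 0.562, limma; exact permutation p = 0.0286) and MatKO minus WT was 0.71 ± 0.30 (SE, adjusted p = 0.999, limma; exact permutation p = 0.0571). The probe next in brightness gave -0.48 between PatKO and MatKO hearts and the remaining 2 gave 0.04 and 0.17, and the mean of all 4 gave -0.27 (unadjusted p = 0.0327, limma). Between MatKO and WT hearts the other 3 probes gave 0.28, 0.24 and -0.05, and the mean of all 4 gave 0.30 (unadjusted p = 0.0327, limma). Without WT 2 that difference at the brightest probe was 0.44 (unadjusted p = 0.189, limma).

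The third Nnat probe (ILMN_1232456) was the only probe of any imprinted gene, of 104, to be called in a comparison. It read 6.92 in the KO heart and, in the other genotypes, 5.24, 5.14, 5.30 and 5.20 in PatKO hearts, 5.25, 5.32, 5.02 and 5.13 in MatKO hearts, and 5.17, 4.74 and 4.91 in WT hearts. The KO heart stood alone above 11 hearts near the array's floor, and its difference from WT was 1.98 (adjusted p = 0.00232, limma, with the spread taken from the other genotypes since there was 1 KO heart). With the replicate number as a block the adjusted p was 0.108, and with only KO and WT hearts in the fit it was 0.213. The other Nnat probes gave 0.84, 1.16 and -0.06 between the KO heart and WT hearts.

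Neuronal, liver and red cell genes were also highest in the KO heart. All 9 measured genes of the neuron list were higher there than in WT hearts, with a median difference of 0.46, and their mean deviation was 0.71 in the KO heart, against 0.35 at most in any other heart. Stmn2, a regulator of axonal microtubules, read 9.68 in the KO heart, 7.48 to 8.53 in PatKO hearts, 6.80 to 7.66 in MatKO hearts and 6.46 to 7.25 in WT hearts, and was called between KO and WT (2.91, adjusted p = 0.0492, limma). Th and Prph, which mark sympathetic and peripheral neurons, stayed at or below 5.35 in all hearts. The mean deviation of 7 red cell genes was 0.83 in the KO heart, against 0.23 at most in any other heart, and that of the liver genes 2.32, against 1.73 at most. Between the KO heart and WT hearts the median difference was 0.95 for red cell genes and 3.97 for liver genes, with none called. The part of neuronal, red cell or liver RNA in the Nnat signal was not tested.

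**Figure D3:**
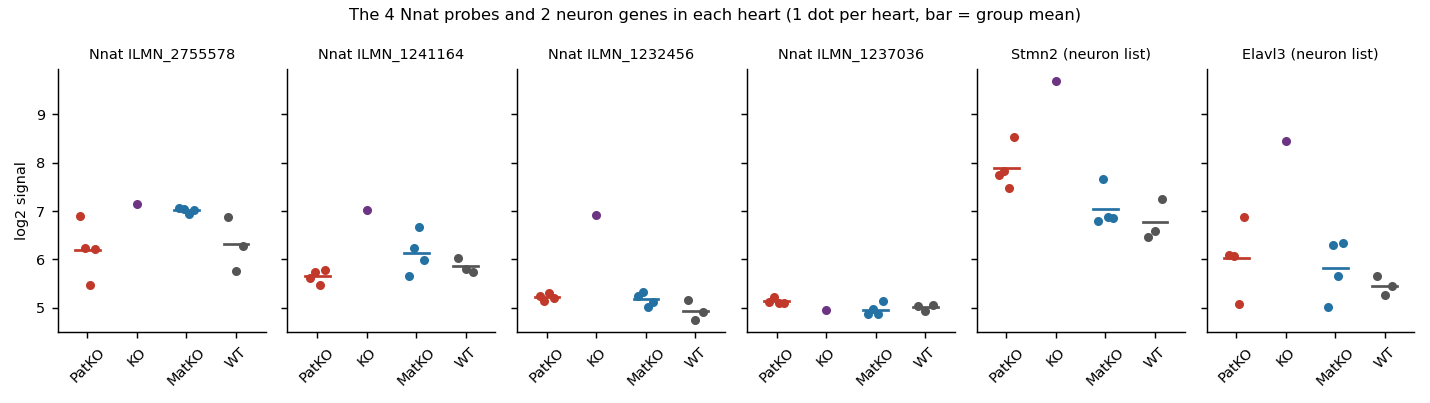
Log2 signal (vertical axis) of the 4 Nnat probes and of the neuron genes Stmn2 and Elavl3 by genotype; dots are hearts and bars are group means. The KO heart reads 6.92 at probe ILMN_1232456, where the other 11 hearts lie between 4.74 and 5.32.

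Nap1l5, a paternally expressed gene of the nucleosome-assembly protein family, was dim and read highest in the KO heart. It read 5.47, 5.26, 5.06 and 5.20 in PatKO hearts, 5.80 in the KO heart, 4.92, 5.35, 4.99 and 5.20 in MatKO hearts, and 5.15, 4.85 and 4.95 in WT hearts. KO minus WT was 0.82 ± 0.20 (SE, unadjusted p = 0.00198, adjusted p = 0.331, limma), and with a single KO heart this has no replicate check. Phlda2 was the only other gene past the unadjusted threshold in that comparison, with 0.37 ± 0.16 (SE, adjusted p = 0.987, limma).

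Inpp5f and Zdbf2 each had their highest heart among the WT hearts. Inpp5f, a phosphoinositide phosphatase one form of which is paternally expressed in brain, read 9.96, 10.10, 10.16 and 10.53 in PatKO hearts, 10.50 in the KO heart, 9.89, 10.01, 9.74 and 10.18 in MatKO hearts, and 10.47, 10.81 and 10.35 in WT hearts. Every MatKO heart lay below every WT heart, a difference of -0.59 ± 0.16 (SE, unadjusted p = 0.00384, adjusted p = 0.999, limma; exact permutation p = 0.0571), and PatKO minus WT was -0.36 ± 0.16 (SE, adjusted p = 1.00, limma; exact permutation p = 0.171). The other 3 Inpp5f probes were dim and gave 0.08, -0.11 and -0.15 between MatKO and WT hearts and 0.32, -0.28 and -0.15 between PatKO and WT hearts. The mean of all 4 gave -0.19 (unadjusted p = 0.0798) for MatKO against WT and -0.12 (unadjusted p = 0.262) for PatKO against WT (limma). Without WT 2 the PatKO difference at the brightest probe was -0.22, and with Xist as a covariate it was -0.21. Zdbf2 read 9.25, 9.25, 9.22 and 9.51 in PatKO hearts, 9.44 in the KO heart, 9.48, 9.68, 9.55 and 9.29 in MatKO hearts, and 9.50, 9.45 and 9.99 in WT hearts. Its PatKO and WT ranges overlapped, with a difference of -0.34 ± 0.15 (SE, unadjusted p = 0.0428, limma) that rested largely on 1 WT heart: without WT 3 it was -0.16.

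**Figure D4:**
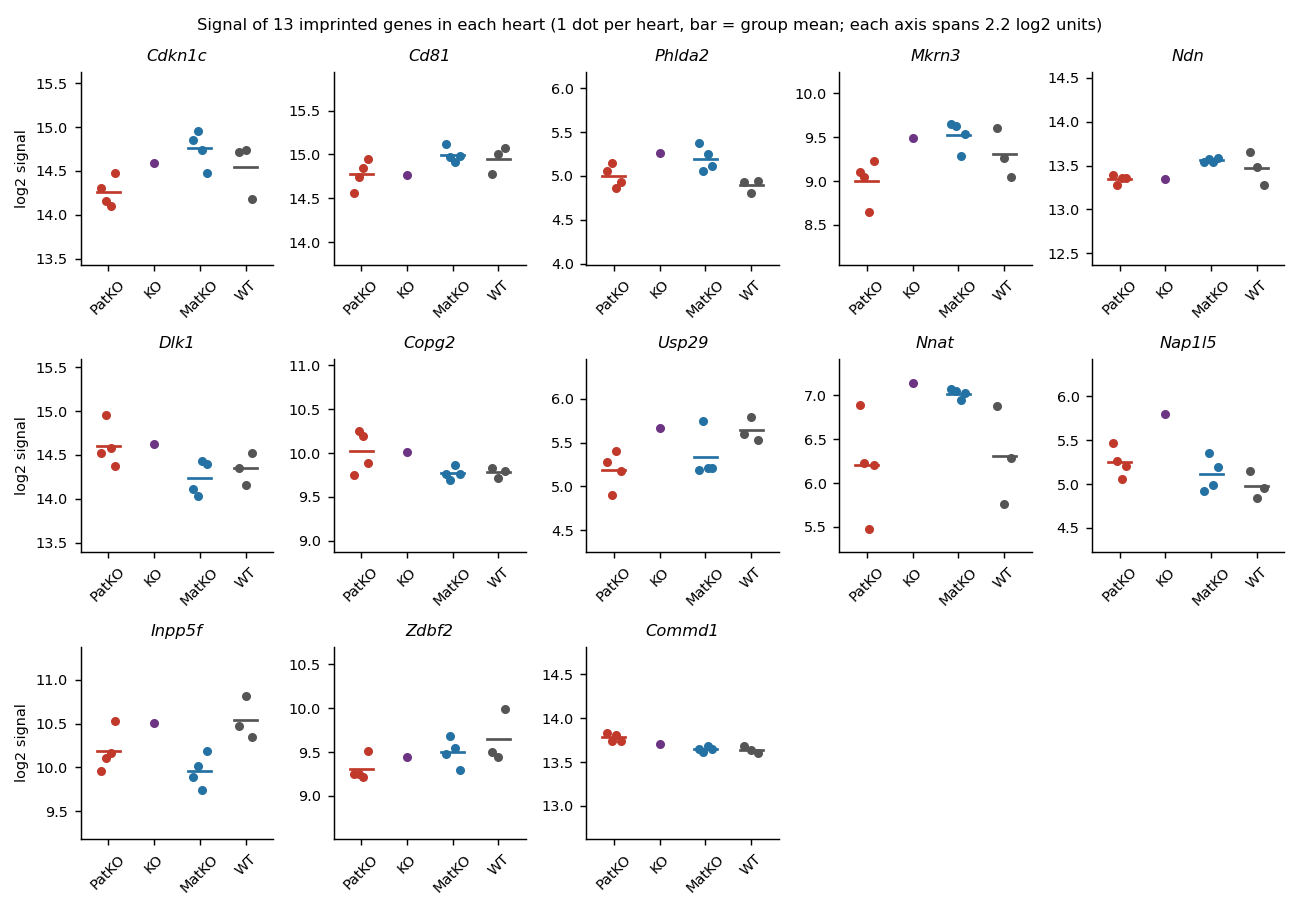
Log2 signal (vertical axis, each panel spanning the same 2.2 units) of the 13 imprinted genes past an unadjusted limma p of 0.05 in at least 1 comparison; dots are hearts and bars are group means. Groups overlap in most panels, and PatKO and MatKO hearts do not overlap for Cdkn1c, Mkrn3, Ndn, Nnat and Commd1.

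Commd1 and Copg2, both expressed from the mother's copy in some tissues, had small differences. Commd1, a protein of copper and protein trafficking, read 13.84, 13.74, 13.81 and 13.74 in PatKO hearts, 13.70 in the KO heart, 13.65, 13.62, 13.69 and 13.65 in MatKO hearts, and 13.69, 13.63 and 13.60 in WT hearts. All 5 ablated hearts lay above all 7 controls, as 0.115% of all probes did, while 0.17% lay below in all 5 and no imprinted gene did (0.285% together), but the step was 0.12 ± 0.05 (SE, adjusted p = 0.901, limma), 109% of the control signal. The exact permutation p was 0.00253, the smallest possible for 5 against 7 hearts, which any separated groups of these sizes give. The mean of the 2 Commd1 probes gave 0.02 (unadjusted p = 0.698, limma). Commd1 lies on chromosome 11, as Ddc does, and the part of strain sequence carried along with the disrupted allele was not tested. Copg2, a subunit of the coatomer coat of transport vesicles, read 9.75, 10.25, 10.19 and 9.89 in PatKO hearts, 10.01 in the KO heart, 9.76, 9.69, 9.87 and 9.77 in MatKO hearts, and 9.83, 9.72 and 9.79 in WT hearts. Ablated and control hearts overlapped, and the difference was 0.24 ± 0.09 (SE, adjusted p = 0.823, limma).

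Its neighbour Mest, a paternally expressed hydrolase-like gene of embryonic mesoderm, read 15.07, 14.85, 14.44 and 14.52 in PatKO hearts, 15.10 in the KO heart, 14.75, 14.59, 14.82 and 15.06 in MatKO hearts, and 15.15, 14.48 and 14.56 in WT hearts. Each genotype with replicates held both high and low hearts, and PatKO minus MatKO was -0.09 ± 0.18 (SE, limma). The spread of Mest within genotypes (SD 0.28) exceeded that of 98.6% of probes of like brightness (mean within 0.5). Peg3 (SD 0.43) exceeded 97.6%, Cdkn1c (0.23) 90.9% and Dlk1 (0.22) 87.6% of such probes, whereas Commd1 (0.04) exceeded 0.413%. These shares describe the hearts as sampled, and no test was made of them.

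Igf2, the paternally expressed fetal growth factor, and Igf2r, the maternally expressed receptor that clears it, had near-equal levels in all genotypes. Igf2 read 15.02, 15.06, 15.15 and 15.21 in PatKO hearts, 15.08 in the KO heart, 15.31, 15.12, 15.14 and 15.01 in MatKO hearts, and 15.11, 15.10 and 15.21 in WT hearts. These values lie close to the highest on the array (15.59), and whether differences are compressed there was not tested. Igf2r read 13.73, 13.85, 13.98 and 13.98 in PatKO hearts, 13.82 in the KO heart, 13.76, 14.26, 13.89 and 13.85 in MatKO hearts, and 13.81, 14.04 and 13.61 in WT hearts. PatKO minus MatKO was -0.04 for Igf2 (95% interval -0.23 to 0.15) and -0.05 for Igf2r (-0.34 to 0.23).

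Of 18 measured genes of the IGF axis outside the list (receptors, binding proteins, substrates), none was called in any comparison (limma), and 5 passed an unadjusted p of 0.05 between PatKO and MatKO hearts. Of all probes, 7.12% passed that threshold in this comparison, 3.3% higher and 3.82% lower, a share that stands beside each count below. Insr, the insulin receptor, gave 0.33 and Igfbp7, an IGF-binding protein of vessels and stroma, 0.60. Igfbp2, Igfbp3 and Igfbp4, binding proteins that hold IGF in the tissue and circulation, gave -0.72, -0.68 and -0.26 (adjusted p from 0.492 to 0.674 over the 5, limma). Igfbp2 and Igfbp7 were named after their values were seen. Of 26 genes of imprint maintenance and DNA methylation, none was called and 1, Trim28, the co-repressor that ZFP57 recruits, passed the unadjusted threshold in that comparison with -0.23 (adjusted p = 0.661, limma). Of 42 further imprinted genes, none was called and 7 passed it, 3 higher and 4 lower, with Smoc1 (-0.50), a matricellular protein, having the smallest p (adjusted p = 0.464, limma). Of 13 epicardial genes, 9 were lower in PatKO than in MatKO hearts, 7 of them past the unadjusted threshold and none called (median -0.57). All 10 neutrophil genes were higher in PatKO than in MatKO hearts (median 1.35, none called). The part of these cells in the differences of the imprinted genes was not tested.

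The remaining genes gave no separated groups between PatKO and MatKO hearts. Plagl1, a zinc-finger growth regulator expressed from the father's copy, read 5.81, 5.30, 5.19 and 5.24 in PatKO hearts, 5.81 in the KO heart, 5.33, 5.67, 6.37 and 6.01 in MatKO hearts, and 6.52, 5.22 and 4.84 in WT hearts. Its WT hearts alone covered the whole range of the others, and PatKO minus MatKO was -0.46 ± 0.34 (SE, limma). Gnas, which encodes the stimulatory G-protein subunit, read 13.91, 13.93, 13.77 and 13.67 in PatKO hearts, 13.90 in the KO heart, 13.47, 13.49, 13.87 and 13.89 in MatKO hearts, and 13.92, 13.58 and 13.67 in WT hearts at its brightest probe. That probe gave 0.14 between PatKO and MatKO hearts, while its 10 probes ranged from -0.26 to 0.95 and 3 dim ones passed an unadjusted p of 0.05, all higher. H13, a signal peptide peptidase maternally expressed in some tissues, gave -0.04 at its brightest probe. However, 8 of its 9 probes were lower in PatKO than in MatKO hearts. Of these, 4 passed that threshold, with -0.46 at the lowest. The choice of probe therefore decided what these loci with many transcripts showed.

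Dcn, the matrix proteoglycan decorin, read 14.36, 14.50, 14.17 and 14.35 in PatKO hearts, 14.34 in the KO heart, 14.47, 14.54, 14.53 and 14.32 in MatKO hearts, and 14.43, 14.43 and 14.70 in WT hearts. Ppp1r9a, an actin-binding scaffold of the Peg10 domain, read 12.30, 11.90, 11.90 and 11.82 in PatKO hearts, 11.94 in the KO heart, 12.00, 12.11, 11.90 and 12.02 in MatKO hearts, and 12.15, 12.02 and 11.77 in WT hearts. For Dcn the KO heart lay just below the WT hearts, and the other genotypes overlapped for both genes. Sgce, the sarcoglycan gene next to Peg10, read 4.77, 5.20, 4.84 and 5.16 in PatKO hearts, 5.21 in the KO heart, 4.96, 4.75, 4.96 and 5.02 in MatKO hearts, and 4.82, 4.90 and 4.97 in WT hearts. Gatm, which makes the precursor of creatine, read 5.26, 4.94, 4.83 and 5.10 in PatKO hearts, 5.05 in the KO heart, 5.41, 4.82, 5.17 and 5.09 in MatKO hearts, and 4.81, 5.12 and 5.15 in WT hearts. Sgce and Gatm stayed within the range of the dimmest probes in every heart. Impact, Slc38a4, Rasgrf1, Asb4 and Peg10 gave 0.11, 0.11, -0.19, -0.10 and -0.00 between PatKO and MatKO hearts.

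**Figure D5:**
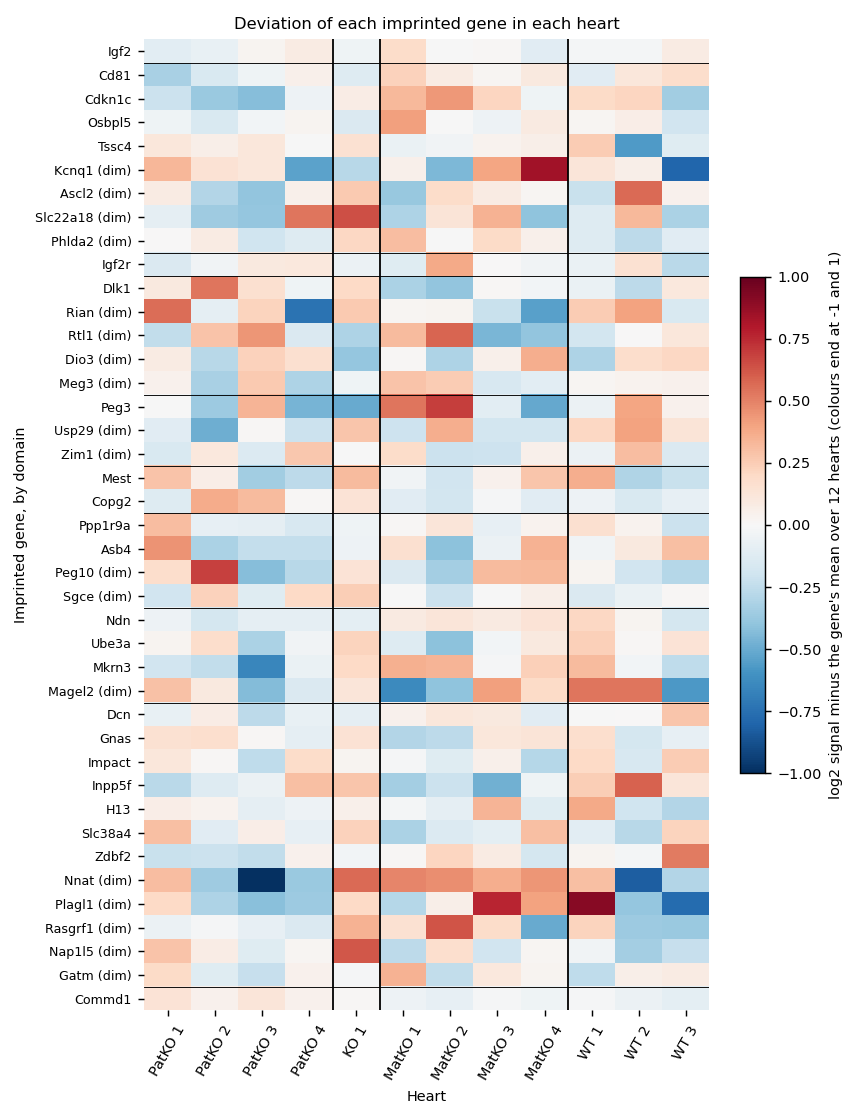
Deviation of each imprinted gene (rows, by domain) in each heart (columns, by genotype) from the gene's mean over 12 hearts, on the log2 scale. No column is uniformly red or blue: the median deviation over the 41 genes lies between -0.09 and 0.12 in every heart, the highest being the KO heart.

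Neighbours within a domain were compared across the 12 hearts, together with Igf2 and Igf2r, which lie on different chromosomes and share no control region. This made 10 pairs. Pearson's r was -0.56 for Dlk1 and Meg3 (rho -0.36), 0.52 for Meg3 and Rian (rho 0.42), 0.43 for Peg3 and Usp29 (rho 0.42), 0.44 for Cdkn1c and Slc22a18 (rho 0.46) and between -0.17 and 0.43 for the other 6. No pair passed after adjustment over the 10 pairs (smallest adjusted p 0.329 for r and 0.416 for rho, permutation test). Dlk1 and Meg3 had a raw permutation p of 0.0570 for r and 0.255 for rho, was -0.16 without the 2 hearts farthest from the median of Dlk1, and was -0.31 within the 6 hearts with Afp signal and -0.24 within the other 6. With each genotype centred on its mean, r was 0.69 for Peg3 and Usp29, 0.69 for Cdkn1c and Slc22a18, 0.67 for Meg3 and Rian, 0.57 for Ndn and Magel2 and -0.49 for Dlk1 and Meg3, and for Cdkn1c and Phlda2 it was -0.11, against 0.31 without centring. Within the 6 hearts with Afp signal and within the other 6, r was -0.17 and -0.00 for Peg3 and Usp29, 0.65 and 0.63 for Cdkn1c and Slc22a18, and 0.69 and -0.25 for Meg3 and Rian.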

How the data were processed

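Total RNA of 12 hearts was hybridized to Illumina mouse arrays, 1 array per heart. The deposited values are log2 signals that the authors had background-corrected (neqc) and normalized between arrays. GenomeStudio and limma appear in the notes of the submitters, without a build or a probe filter. The methods text gives another array maker, but the probe names are Illumina's. Array medians were 5.61 to 5.62. A scanner table (24 columns) was not used here, since its columns pair with no heart.

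Linear models (lmFit, eBayes; limma 3.58.1, R 4.3.3) took genotype as 4 levels over all hearts, or 2 levels for ablated against control, and p-values were adjusted over all 45267 probes. Symbols came from the platform annotation (34875 probes with 1 symbol, 18 with several, 10374 unlisted). The brightest probe stood for a gene, and a mean under 7 was called dim. Exact permutation tests and correlations (100000 permutations) were two-sided (scipy 1.17.1). The fit was tested on simulated data. Detection flags were not used, and the number of arrays limits the precision.

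Values in every heart are given for genes past an unadjusted p of 0.05 in any comparison, the brightest and dimmest gene of each domain, and Igf2, Igf2r, Cdkn1c, Dlk1, Meg3, Peg3, Mest, Plagl1 and Gnas. Of each gene list, called genes or up to 3 with the smallest p are named. The genes, lists and domains were chosen with earlier results of these data known.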

Additional observations from a re-analysis of the deposited data

Results flagged for a closer look

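Within groups of 4 hearts, 3 of 82 gene and genotype combinations held a single heart far from the others, measured as its gap to the nearest heart over the whole range. Chance gives about 1 in 20, or 4.1 of 82. Usp29 read 5.75 in MatKO 2, against 5.19 to 5.21 in the other MatKO hearts. Asb4, a gene of the Peg10 domain, read 8.83 in PatKO 1, against 8.07 to 8.15 in the other PatKO hearts. Zdbf2 read 9.51 in PatKO 4, against 9.22 to 9.25 in the other PatKO hearts.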

How the results depend on the processing

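The count of imprinted genes called, read at the brightest probe or at the mean of all probes where that was the alternative, stayed at 0. This held under all 21 alternatives of each comparison, 20 for KO against WT, where leaving out the KO heart leaves no comparison. Leaving out 1 heart at a time moved the median difference of the 41 genes between -0.07 and -0.02 for PatKO against MatKO, -0.0955 and 0.00222 for PatKO against WT, -0.01 and 0.05 for MatKO against WT, -0.0282 and 0.0934 for KO against WT, and -0.05 and 0.01 for ablated against control. The liver covariate gave a median of -0.0667 for PatKO against WT, and the mean of all probes of a gene gave 0.00196 for KO against WT. Genes past an unadjusted p of 0.05 numbered 3 to 8 for PatKO against MatKO, 0 to 5 for PatKO against WT, 1 to 5 for MatKO against WT, 0 to 5 for KO against WT and 3 to 9 for ablated against control. The causes were not tested.

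With the replicate number as a block, the median for KO against WT was -0.0204 and 0 imprinted genes were called in any comparison. Over all probes the block gave 1 higher and 4 lower calls for KO against WT, where 28 and 5 were called without it. Hearts of the same number did not pair: their deviations correlated between -0.35 and 0.54 over 10 pairs, and 3 of 11 hearts correlated best with a heart of their own number.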
